A study of Mus musculus with 8 samples.

Results

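The 7 globin genes described here encode the protein chains of mouse hemoglobin. They were taken by name from a table of 55421 gene identifiers, and the set was chosen with earlier results of these data known. Hbb-y, Hbb-bh1 and Hba-x encode the embryonic chains, and Hba-a1, Hba-a2, Hbb-bs and Hbb-bt the adult-type chains. Mouse embryos of genotype Gcnf-/- or wt had been taken at E9.25, when they held 9 to 11 somites. The gene Nr6a1 encodes germ cell nuclear factor (Gcnf), a nuclear receptor with no known ligand. Neither the deleted part of the allele nor the strain is stated in the labels. Each embryo had been cut into an anterior piece, reaching back to the first pharyngeal arch, and a posterior piece, beginning at the second. There were 4 groups of 2 poly-A RNA libraries each: mutant anterior and mutant posterior (numbers 159 and 163), and wild-type anterior and wild-type posterior (numbers 153 and 156). The comparison addressed here is how globin RNA differed between mutant and wild-type tissue in each piece, with embryonic set against adult-type chains and the alpha against the beta cluster.

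Hemoglobin is a tetramer of 2 alpha-type and 2 beta-type chains, each holding a heme group. In the mouse the first red cells, the primitive erythroblasts, arise in the yolk sac and enter the embryo when the heart begins to beat. They make mainly the embryonic chains: zeta from Hba-x, in the alpha cluster, and epsilon-y and beta-h1 from Hbb-y and Hbb-bh1, in the beta cluster. Primitive cells are known to shift as they mature from beta-h1 towards epsilon-y and from zeta towards alpha chains. Definitive red cells, which come later from the fetal liver, make the adult-type chains.

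The members lie at 2 loci of the mm10 build. In the beta cluster on chromosome 7, all on the minus strand, Hbb-y (ENSMUSG00000052187) spans chr7:103851749-103853216 and Hbb-bh1 (ENSMUSG00000052217) spans chr7:103841637-103843164. Hbb-bs (ENSMUSG00000052305) spans chr7:103826534-103828096 and Hbb-bt (ENSMUSG00000073940) chr7:103812524-103813996, so the genes run in the order embryonic to adult-type along the transcribed strand. In the alpha cluster on chromosome 11, all on the plus strand, Hba-x (ENSMUSG00000055609) spans chr11:32276400-32278116. Hba-a1 (ENSMUSG00000069919) spans chr11:32283511-32284465 and Hba-a2 (ENSMUSG00000069917) chr11:32296489-32297298.

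The bases upstream of the members' start sites are shown first, as a description. All 7 members moved in the same direction between genotypes, and a link between these bases and that change was not tested. The RefSeq promoter table (GRCm38.p6) held 6 of the 7, all but Hbb-bh1. Each line gives the 130 bases before the RefSeq start site, 5′ to 3′ on the gene's own strand. RefSeq starts differ from those of the gene spans given above, which come from another annotation. The bases shown therefore lie wholly inside those spans for Hba-x, Hba-a1 and Hbb-bs, and partly inside for Hbb-y and Hbb-bt. Capitals mark 5 short boxes, searched on both strands. Klf factors are known to bind CACCC. The CCAAT box is bound by general promoter factors. Gata factors bind TGATAA and likewise the variant AGATAA, here counted as a single box. The letters ATAAA form the core of a TATA box. Nuclear receptors bind single copies or repeats of AGGTCA.
Hbb-y, chr7:103853208-103853337, minus strand: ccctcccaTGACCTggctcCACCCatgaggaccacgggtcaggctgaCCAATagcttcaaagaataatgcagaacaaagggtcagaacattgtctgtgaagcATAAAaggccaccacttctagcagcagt
Hba-x, chr11:32276470-32276599, plus strand: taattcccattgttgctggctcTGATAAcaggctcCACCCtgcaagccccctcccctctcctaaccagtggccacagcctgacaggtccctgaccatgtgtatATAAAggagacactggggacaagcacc
Hba-a1, chr11:32283542-32283671, plus strand: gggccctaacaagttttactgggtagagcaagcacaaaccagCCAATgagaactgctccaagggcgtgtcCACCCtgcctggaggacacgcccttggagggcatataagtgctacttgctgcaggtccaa
Hbb-bs, chr7:103827929-103828058, minus strand: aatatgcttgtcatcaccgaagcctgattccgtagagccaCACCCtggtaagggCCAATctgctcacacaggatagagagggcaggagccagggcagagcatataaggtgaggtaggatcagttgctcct
Hbb-bt, chr7:103813924-103814053, minus strand: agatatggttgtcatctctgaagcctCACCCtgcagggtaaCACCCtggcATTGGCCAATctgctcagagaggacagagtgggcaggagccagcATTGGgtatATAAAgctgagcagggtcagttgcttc

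Over the 250 bases before the start, all 6 promoters held CACCC, which 52.0% of 32851 RefSeq promoters hold in a window of that length. CCAAT stood in 5 of the 6, all but Hba-x, against 33.8% of promoters. In Hbb-bt a CCAAT box and its reverse stand side by side, at -80 to -71 counted from the start. The Gata box was present in 5 of the 6, all but Hbb-bt, against 16.6% of promoters, and of these only that of Hba-x, at -108 to -103, lies inside the 130 bases shown. ATAAA was found close to the start, beginning at -28 in Hbb-y and at -27 in Hba-x and Hbb-bt, and 37.3% of promoters hold it somewhere in the window. Hba-a1, Hba-a2 and Hbb-bs did not hold ATAAA, but read tataag close to the start, which the searched letters miss. For these genes the missing match thus does not mean that a TATA box is absent. Hbb-y was the 1 member with AGGTCA, reading against the direction of the gene at -122 to -117, where the line shows TGACCT, against 14.0% of promoters. The germ cell nuclear factor is known to bind 2 such copies joined with no gap, and that repeat was in 0 of the 6 windows and in 2 of 32851. A match describes the letters only, and a missing match says nothing about binding. The windows of Hba-a1 and Hba-a2 shared a run of 247 identical bases, so that of Hba-a2 is not printed and the 2 are not separate cases in the counts above. The longest run common to Hbb-bs and Hbb-bt was 14 bases.

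Levels are TPM, a measure of transcript abundance that corrects for gene length and scales each library to a total of 1000000. The values correspond to between 27064113 and 52957993 reads in genes per library, and a gene of 1 kb with 3 reads stood at 0.2 to 0.403 TPM. That floor covers counting error only. Both mutant libraries numbered 159 had Xist (25.3 and 30.9 TPM), and the other 6 had Ddx3y of the Y chromosome (26.2 to 39.4 TPM), so mutant 159 and mutant 163 did not come from the same embryo and sex was unequal between the genotypes. Whether the wild-type numbers mark separate embryos is not stated, and the p-values below speak for the spread of these libraries alone. Nr6a1 itself stood at 116 to 240 TPM in mutant and at 157 to 205 TPM in wild-type libraries. Without knowing the deleted part, these values do not check the genotype labels.

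Differences below are of log2(TPM + 1), mutant minus wild type or posterior minus anterior, with their standard error. They were tested with limma over all 8 libraries (two-sided, Benjamini-Hochberg adjustment over 16699 genes, threshold 0.05). All 7 members rose in the mutant in both pieces. In the anterior piece 23.6% of all genes tested passed, 13.3% being higher and 10.2% lower in the mutant. In the posterior piece 11.5% passed, 8.56% being higher and 2.93% lower. The median over the members was 2.35 in the anterior and 2.17 in the posterior piece, beside medians over all genes of 0.02 and 0.048. Every member also had both mutant libraries above both wild-type libraries in each piece, which held for 35.1% of all genes in the anterior and 33.4% in the posterior piece. All 4 mutant libraries were above all 4 wild-type libraries for each of the 7, against 14% of all genes. The pieces share the numbers 159 and 163 in the mutant and 153 and 156 in the wild type, so these libraries cannot be counted as independent. In bulk tissue, more red cells and more globin RNA per red cell cannot be told apart.

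**Figure D1:**
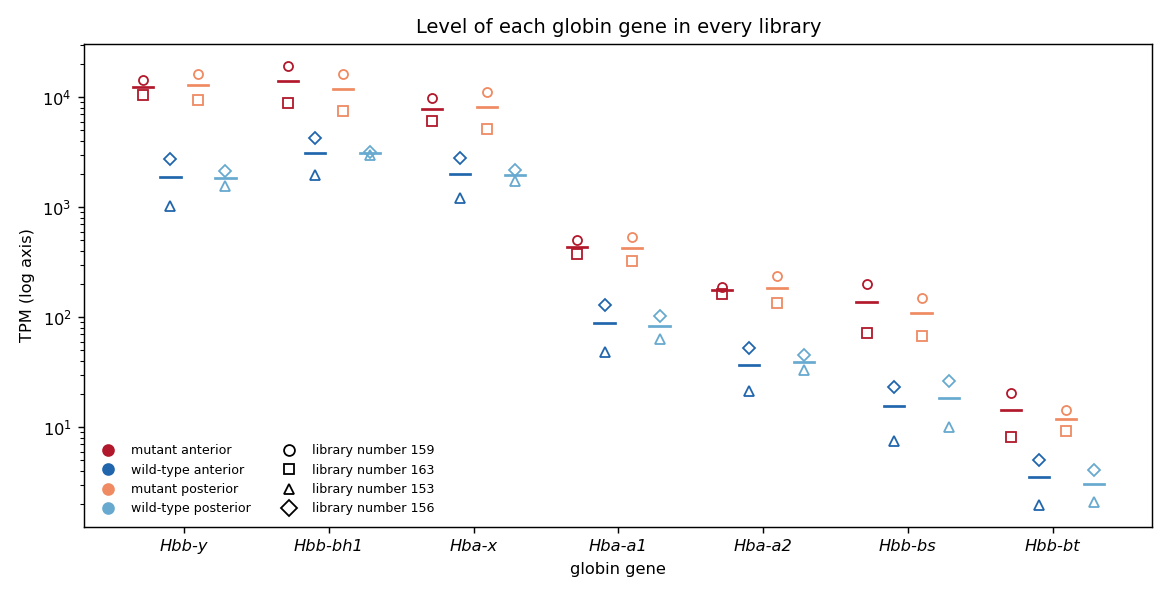
Level of each globin gene (TPM, log axis) in every library, with symbols for the library number and bars for the mean of 2 libraries. For each gene the mutant libraries (red and orange) lie above the wild-type libraries (blue shades), and mutant 159 lies above mutant 163.

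Among the embryonic beta-type chains, Hbb-y stood at 14441 and 10362 TPM in mutant anterior libraries 159 and 163, against 1014 and 2755 TPM in wild-type anterior libraries 153 and 156. In the posterior pieces it was at 16239 and 9383 TPM in the mutant and at 1563 and 2122 TPM in the wild type. The lowest mutant library was thus more than 3 times the highest wild-type one, and in both genotypes the libraries of a group differed among themselves. The mean was 6.58 times as high in mutant as in wild-type anterior pieces (2.87 ± 0.44, adjusted p = 0.0027) and 6.95 times in posterior pieces (2.76 ± 0.44, adjusted p = 0.0062).

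Hbb-bh1, the other embryonic beta-type chain, had 19193 and 8847 TPM in mutant anterior libraries 159 and 163, against 1954 and 4219 TPM in wild-type anterior libraries 153 and 156. Its posterior values were 16272 and 7446 TPM in the mutant and 2981 and 3194 TPM in the wild type. Mutant library 159 held more than 2 times the level of 163 in each piece, a wider gap than for Hbb-y. The mean was 4.54 times as high in mutant anterior pieces (2.18 ± 0.48, adjusted p = 0.013) and 3.84 times in mutant posterior pieces (1.83 ± 0.48, adjusted p = 0.043).

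The embryonic alpha-type gene Hba-x was at 9712 and 6034 TPM in mutant anterior libraries 159 and 163, against 1211 and 2824 TPM in wild-type anterior libraries 153 and 156. In posterior pieces it was at 11059 and 5125 TPM in the mutant and at 1728 and 2190 TPM in the wild type. Groups did not overlap, and the spread again came from a higher 159 than 163 and a higher 156 than 153. Its means were 3.90 times as high in mutant as in wild-type anterior pieces (2.05 ± 0.45, adjusted p = 0.013) and 4.13 times in posterior pieces (1.95 ± 0.45, adjusted p = 0.028).

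The adult-type genes stood far lower in every library, and they rose too. Hba-a1 was at 501 and 372 TPM in mutant anterior libraries, against 47.9 and 129 TPM in wild-type anterior libraries, in the order 159, 163 and 153, 156 used from here on. Posterior values were 532 and 323 TPM in the mutant and 63.7 and 102 TPM in the wild type. The differences were 2.44 ± 0.43 in the anterior piece (adjusted p = 0.0052) and 2.35 ± 0.43 in the posterior piece (adjusted p = 0.012). Hba-a2, the second alpha gene, had 188 and 162 TPM in mutant anterior pieces, against 21.4 and 51.9 TPM in wild-type anterior pieces. In posterior pieces it stood at 235 and 135 TPM in the mutant and at 33.3 and 45.1 TPM in the wild type. Its differences were 2.35 ± 0.38 (adjusted p = 0.0036) and 2.17 ± 0.38 (adjusted p = 0.0097).

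Hbb-bs, an adult-type beta chain, was at 200.4 and 72.2 TPM in mutant anterior libraries, against 7.50 and 23.4 TPM in wild-type anterior libraries. In the posterior pieces the values were 151 and 67.2 TPM in the mutant and 9.98 and 26.6 TPM in the wild type. Mutant libraries 159 stood apart from 163 most widely here, and the standard error was the largest of the 7. The differences were 3.08 ± 0.66 in the anterior piece (adjusted p = 0.012), with means 8.83 times apart, and 2.55 ± 0.66 in the posterior piece (adjusted p = 0.043), with means 5.96 times apart. Hbb-bt, its neighbour, was the lowest member, at 20.3 and 8.13 TPM in mutant anterior libraries and 1.97 and 5.05 TPM in wild-type anterior libraries. Posterior values were 14.5 and 9.28 TPM in the mutant and 2.10 and 4.05 TPM in the wild type. Between 11 and 40 reads lay behind each wild-type value, and 51 to 153 behind each mutant value. The differences were 1.72 ± 0.46 (adjusted p = 0.027) and 1.67 ± 0.46 (adjusted p = 0.049), the smallest of the members on this scale, which understates the change of low genes.

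The anterior calls of Hbb-y, Hba-a1 and Hba-a2 held under each of 22 alternative settings, whereas 3 of 7 calls were left without mutant library 159 of the anterior piece, and likewise without wild-type library 153. The posterior calls were less firm: 0 of 7 passed without wild-type posterior library 153 or with no filter on low values, 1 without wild-type posterior library 156, and 3 without mutant posterior library 159. Other scalings of the libraries left 4 (median of ratios) and 3 (quantile) posterior calls, weighting libraries left 2, and all differences stayed positive. With both libraries numbered 159 left out, so that every remaining library had Y-linked RNA, 6 anterior and 3 posterior calls were left, and the lone mutant library of each piece was then assumed to vary like the other groups.

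The copies at each locus are partly identical, which limits how far they can be told apart. Of the 50-base words of the Hba-a1 transcript, 67.5% also occur in Hba-a2, and 86.9% of those of Hba-a2 occur in Hba-a1. Hbb-bt and Hbb-bs shared 58.3% of the words of Hbb-bt and 65.8% of those of Hbb-bs, while the embryonic Hbb-y, Hbb-bh1 and Hba-x shared 0.0% with any other gene. No source used here states how the authors' counting placed reads that match both copies, so the split within each pair is uncertain and sums are given beside it. Hba-a1 plus Hba-a2 came to 689 and 534 TPM in mutant anterior pieces, against 69.3 and 181 TPM in wild-type anterior pieces. In posterior pieces the sum was 767 and 457 TPM in the mutant and 97.0 and 147 TPM in the wild type. Hbb-bs plus Hbb-bt came to 221 and 80.4 TPM in mutant anterior pieces, against 9.47 and 28.4 TPM in wild-type anterior pieces. Posterior sums were 165 and 76.5 TPM in the mutant and 12.1 and 30.6 TPM in the wild type. For both pairs the mutant libraries lay above the wild-type libraries in each piece.

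The order of the levels differed between the genotypes at its upper end. In all 4 wild-type libraries Hbb-bh1 was the highest member, followed by Hba-x and then Hbb-y. In the mutant, Hbb-y was the highest member in both libraries numbered 163, and Hbb-bh1 in both numbered 159, with Hba-x next after these in all 4. Hbb-y and Hbb-bh1 were level in mutant posterior library 159, at 16239 and 16272 TPM, and Hba-x and Hbb-y were close in wild-type posterior library 156, at 2190 and 2122 TPM. Below these came Hba-a1 and, except in mutant anterior library 159, then Hba-a2, Hbb-bs and Hbb-bt. In that library Hbb-bs (200.4 TPM) stood just above Hba-a2 (188 TPM). The means of Hbb-bh1 and Hbb-y differed by less than the SD between libraries in both mutant groups, as did those of Hba-x and Hbb-y in both wild-type groups, while every embryonic gene was far above every adult-type gene in every library. No rank changed when the spliced length of the first listed transcript replaced the joined exon length, a check added once the values were known.

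Ratios within a library do not depend on the total to which TPM is scaled, nor on how many red cells a piece held if the cells are alike. Hbb-bh1 over Hbb-y was 1.33 and 0.854 in mutant anterior libraries and 1.0 and 0.794 in mutant posterior libraries. In wild-type libraries it was 1.93 and 1.53 in anterior pieces and 1.91 and 1.51 in posterior pieces. Every mutant library was below every wild-type library, with the nearest pair at 1.33 and 1.51. As a share of the reads of both genes, Hbb-bh1 took 56.3% in mutant anterior library 159 (95% Clopper-Pearson interval 56.1 to 56.5%) and 59.3% in wild-type posterior library 156 (58.9 to 59.8%). These intervals cover counting error only and not the spread between embryos.

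Hba-x over Hbb-y showed the wider separation. It was 0.672 and 0.582 in mutant anterior libraries and 0.681 and 0.546 in mutant posterior libraries. In the wild type it was 1.19 and 1.03 in anterior pieces, with 1.11 and 1.03 in posterior pieces. No mutant value came near the wild-type values. Hba-x over Hbb-bh1, in contrast, ranged from 0.506 to 0.688 in the mutant and from 0.58 to 0.686 in the wild type, so those groups overlapped. Hbb-y made up 32.6% to 41.7% of all globin TPM in mutant libraries and 23.8% to 27.6% in wild-type libraries, without overlap.

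**Figure D2:**
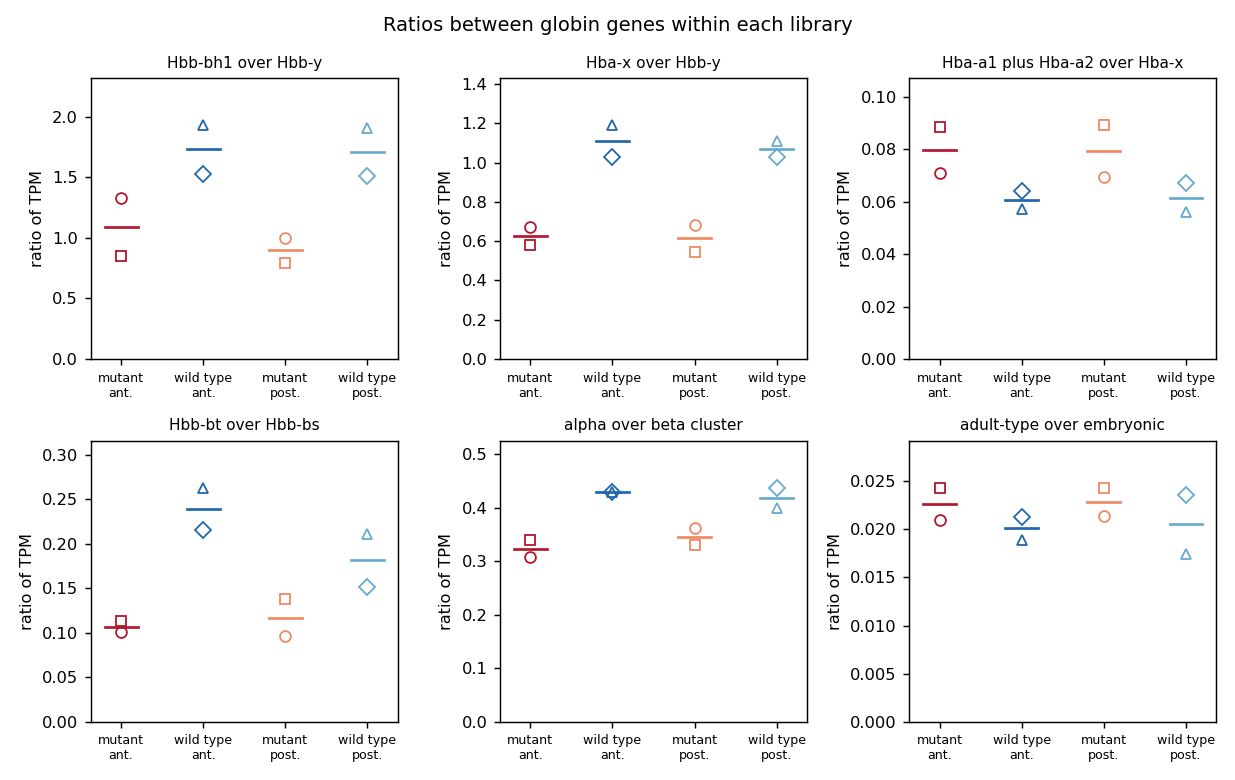
Ratios of TPM between globin genes in each library, with symbols as in the plot of levels (circle 159, square 163, triangle 153, diamond 156) and bars for the mean of 2 libraries. Hbb-bh1 over Hbb-y, Hba-x over Hbb-y and the alpha over beta ratio lie lower in every mutant library than in every wild-type library, while the adult-type over embryonic ratio overlaps.

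For the alpha chains, the adult-type sum of Hba-a1 and Hba-a2 over Hba-x was 0.071 and 0.0884 in mutant anterior libraries and 0.0693 and 0.0892 in mutant posterior libraries. Wild-type values were 0.0572 and 0.064 in anterior pieces, with 0.0561 and 0.067 in posterior pieces, all below the mutant values. The nearest pair stood at 0.0693 in mutant and 0.067 in wild-type libraries. For the beta chains, Hbb-bs plus Hbb-bt over Hbb-y plus Hbb-bh1 ranged from 0.00418 to 0.00656 in the mutant and from 0.00266 to 0.00576 in the wild type, and those groups overlapped. Over all members, adult-type over embryonic TPM was 0.021 to 0.0243 in mutant libraries and 0.0174 to 0.0236 in wild-type libraries, again with overlap.

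Set by cluster, alpha over beta TPM was 0.307 and 0.34 in mutant anterior libraries and 0.362 and 0.33 in mutant posterior libraries. It was 0.43 and 0.429 in wild-type anterior libraries, with 0.4 and 0.437 in wild-type posterior ones. All mutant values were below all wild-type values. This ratio is not separate from Hba-x over Hbb-y, which holds genes of both sums, and Hba-x over Hbb-bh1 overlapped between genotypes. Its level also depends on the lengths used, 938 joined or 801 spliced bases for Hba-x. Within the pairs of copies, Hba-a2 over Hba-a1 overlapped between genotypes (0.376 to 0.441 in mutant and 0.404 to 0.522 in wild-type libraries). Hbb-bt over Hbb-bs was 0.0962 to 0.138 in mutant libraries and 0.152 to 0.263 in wild-type libraries. Hbb-bs and Hbb-bt are the adult genes of 1 of the known Hbb haplotypes. As the strain is not stated, whether all embryos carried that haplotype is unknown, which limits what this split and the levels of both genes mean. Few reads lay behind the wild-type values: Hbb-bt took 57 of 508 reads of the pair in mutant posterior library 163 (11.2%, 95% interval 8.61 to 14.3%) and 40 of 327 in wild-type posterior library 156 (12.2%, 8.88 to 16.3%), and these intervals overlapped. The ratios are given as descriptions with no test. With 2 libraries against 2 an exact permutation test could not go below p = 0.333, and no model was fitted to them.

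Together the 7 genes took 4.43 and 2.59% of all TPM in mutant anterior libraries and 4.45 and 2.25% in mutant posterior libraries. In the wild type they took 0.426 and 1.0% in anterior pieces, with 0.638 and 0.768% in posterior pieces. The means were 3.51 ± 1.3% in mutant anterior and 0.713 ± 0.407% in wild-type anterior pieces, and 3.35 ± 1.56% in mutant posterior and 0.703 ± 0.092% in wild-type posterior pieces (SD, n = 2 libraries each). The lowest mutant share was more than 2 times the highest wild-type share. Because TPM is relative, a larger globin share lowers all other values of a library by that much.

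**Figure D3:**
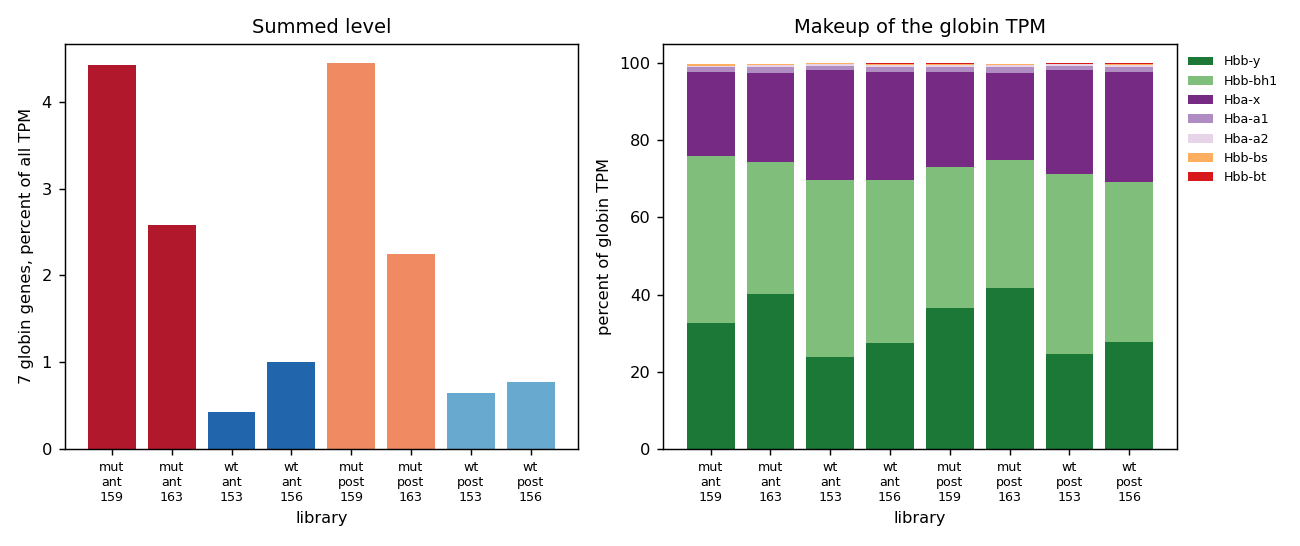
Left, the 7 globin genes as a percent of all TPM in each library, and right, the percent of globin TPM taken by each gene. Mutant libraries hold 2.25 to 4.45% and wild-type libraries 0.426 to 1.0%, and the Hbb-y part is larger in each mutant library than in each wild-type library.

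No difference between the pieces was detected for any member. Of the 7, 0 passed for the difference between the anterior and posterior genotype effects, where 1.01% of all genes passed (0.413% with a larger and 0.599% with a smaller anterior value). The differences of effects, anterior minus posterior, lay between 0.05 and 0.53, with standard errors of 0.54 to 0.94, and 0 of 7 had an unadjusted p under 0.05 in limma. Posterior minus anterior differences within the mutant lay between -0.26 (Hbb-bs) and 0.03 (Hba-a2), with 0 of 7 passing, also at an unadjusted p under 0.05, while 16.1% of all genes passed (8.01% higher and 8.1% lower in the posterior piece). Within the wild type they lay between -0.10 (Hbb-bt) and 0.27 (Hbb-bs), with 0 of 7 passing by either measure and 14.5% of all genes passing (7.86% higher and 6.65% lower). Standard errors were 0.38 to 0.66 for both. To pass, a difference would have had to be well above its error, so differences larger than these errors could also have been missed.

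The table holds 7 further globin genes and pseudogenes, of which 3 passed the filter on low values. Hbq1b, a theta-type globin gene of the alpha cluster, was at 16.6 and 7.88 TPM in mutant anterior libraries, against 0.588 and 3.17 TPM in wild-type anterior libraries. Posterior values were 12.7 and 5.53 TPM in the mutant and 1.11 and 1.57 TPM in the wild type. It rose by 2.28 ± 0.51 in the anterior piece (adjusted p = 0.013) and by 2.02 ± 0.51 in the posterior piece (adjusted p = 0.037). Hbb-bh0, a pseudogene between Hbb-y and Hbb-bh1, was at 6.95 to 14.8 TPM in mutant and 1.65 to 4.41 TPM in wild-type libraries and passed in both pieces (1.62 ± 0.36, adjusted p = 0.013, and 1.40 ± 0.36, adjusted p = 0.041), on 2 to 22 reads a library. Hbb-bh2 differed by 0.81 ± 0.29 (adjusted p = 0.078) and 0.31 ± 0.29 (adjusted p = 0.54). Hbq1a had 4 reads or fewer in every library, and Hbb-bh3 had 0 in all 8. The pseudogenes Hba-ps3 and Hba-ps4, on chromosomes 15 and 17, had at most 4 reads.

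Of the genes that flank the alpha cluster, 4 were tested. In the mutant anterior piece 0 rose and 1 fell, beside 13.3% and 10.2% of all genes, and 4 genes are too few to set against those shares. The gene that fell was Rhbdf1, at -0.59 ± 0.17 (limma, adjusted p = 0.032). Nprl3, which holds the main alpha globin enhancers, was at 8.71 and 8.79 TPM in mutant anterior libraries and 12.1 and 11.0 TPM in wild-type anterior libraries (-0.36 ± 0.13, adjusted p = 0.077). In the posterior piece 0 of the 4 passed, beside 11.5% of all genes, and 0 had an unadjusted p under 0.05.

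Other genes of red cells were counted over 4 lists, of which 53 genes were tested. In the anterior piece 14 were higher and 1 was lower in the mutant, with a median difference of 0.36, beside 13.3% higher and 10.2% lower among all genes. In the posterior piece 6 were higher and 0 lower, with a median of 0.38. That posterior count is near the 11.5% of all genes that passed there. These counts varied with the libraries: the anterior total of 15 became 7 without mutant anterior library 159 and 5 without wild-type anterior library 153. The posterior total of 6 became 1 without mutant library 159 and 15 without mutant library 163 of that piece, and 0 without wild-type library 153 and 1 without 156. Both mutant libraries were above both wild-type libraries for 28 of the 53 in the anterior and 33 in the posterior piece, beside 35.1% and 33.4% of all genes. The lists were chosen with earlier results of these data known.

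Between pieces, 5 of the 53 were higher and 4 lower in mutant posterior than in mutant anterior tissue, and 4 were higher and 1 lower in the wild type. The mutant count is near, and the wild-type count below, the share of all genes that passed (16.1% for mutant and 14.5% for wild-type pieces), so the values that follow describe single genes. Zfpm1, the Gata1 partner Fog1, averaged 86.3 ± 12.1 TPM in mutant posterior and 45.1 ± 3.36 TPM in mutant anterior pieces, and 61.9 ± 5.59 TPM in wild-type posterior and 26.5 ± 0.601 TPM in wild-type anterior pieces (SD, n = 2 each). Lmo2, Cbfa2t3 and the water channel Aqp1 were also higher in the posterior piece of both genotypes, by 0.77, 0.67 and 1.23 in the mutant and by 0.81, 0.84 and 1.15 in the wild type. Myb differed by -1.06 ± 0.17 in the mutant (limma, adjusted p = 0.0028). Alas2, which rose beside the globins in the mutant, differed between pieces by -0.24 ± 0.5 in mutant and 0.07 ± 0.5 in wild-type embryos.

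Among heme synthesis and iron supply genes, 3 of 16 rose in each piece, where 13.3% (anterior) and 8.56% (posterior) of all genes rose. Alas2, the red cell enzyme of the first step of heme synthesis, was at 166 and 71.1 TPM in mutant anterior libraries and 11.7 and 26.7 TPM in wild-type anterior libraries (2.55 ± 0.5, adjusted p = 0.008). In the posterior piece it was at 140 and 60.4 TPM in the mutant and 17.0 and 20.4 TPM in the wild type (2.24 ± 0.5, adjusted p = 0.025). These differences were of the size of those of the globins. Ppox, a later heme enzyme, rose by 0.57 and 0.70 in the anterior and posterior pieces. Abcb10, a mitochondrial transporter, rose by 0.69 in the anterior piece and Tfrc, the transferrin receptor, by 0.78 in the posterior piece.

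Of 15 red cell membrane and cytoskeleton genes, 4 rose in the anterior piece and 1 in the posterior piece, the second count being no more than the 8.56% of all genes that rose there. Rhd, a Rhesus blood group protein, passed in both (1.66 ± 0.32, adjusted p = 0.0075, and 1.55 ± 0.32, adjusted p = 0.019). Add2, an adducin of the membrane skeleton, rose by 1.93 and Kel, a blood group antigen, by 1.66 in the anterior piece. Slc4a1, the anion exchanger band 3, was at 129.6 and 48.1 TPM in mutant anterior libraries and 19.1 and 42.1 TPM in wild-type anterior libraries, and its difference of 1.44 ± 0.56 did not pass (adjusted p = 0.095). Of 10 tested partners and red cell enzymes, 4 rose and 1 fell in the anterior piece (13.3% and 10.2% of all genes), and 1 rose in the posterior piece (8.56%). Blvrb, which reduces biliverdin, passed in both pieces (1.69 ± 0.32, adjusted p = 0.0072, and 1.64 ± 0.32, adjusted p = 0.016). Xpo7, a nuclear exporter of maturing red cells, fell by 0.45 in the anterior piece.

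Among 12 tested erythroid transcription factors, 3 rose in the anterior piece and 1 in the posterior piece, beside 13.3% and 8.56% of all genes, so the posterior count is at the background. Zfpm1 passed in both pieces (0.74 ± 0.12, adjusted p = 0.0039, and 0.47 ± 0.12, adjusted p = 0.043). Nfe2, which acts at the globin enhancers, rose by 1.35 ± 0.38 (adjusted p = 0.033) and Myb, a regulator of blood progenitors, by 0.83 ± 0.17 (adjusted p = 0.0087) in the anterior piece. Gata1, the master regulator of the lineage, was at 19.6 and 8.41 TPM in mutant anterior libraries and 3.15 and 6.51 TPM in wild-type anterior libraries (1.32 ± 0.49, adjusted p = 0.083). Klf1, which activates adult beta globin, had a difference of 0.98 ± 0.34 there (adjusted p = 0.067). Tal1 (0.09 ± 0.23) and Lmo2 (0 ± 0.1), which blood vessel cells also express, had differences near 0 in the anterior piece.

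**Figure D4:**
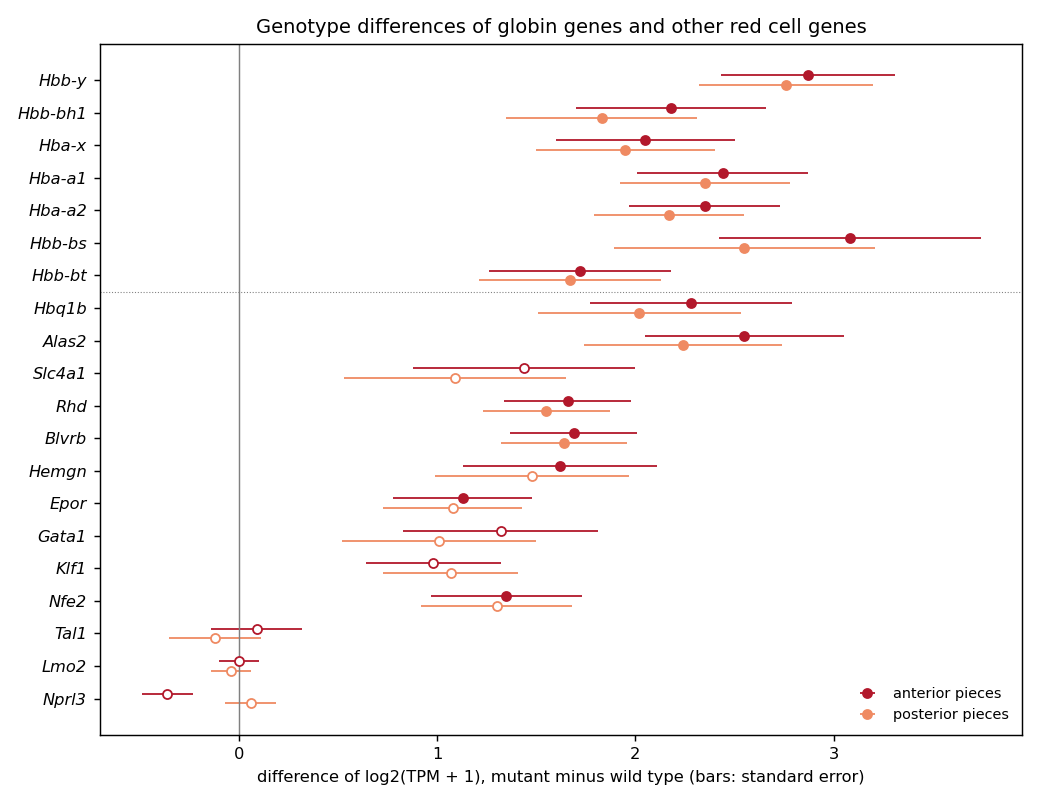
Differences of log2(TPM + 1), mutant minus wild type, with standard errors, for the 7 globin genes (above the dotted line) and 13 other genes of red cells or of the alpha cluster, in anterior (red) and posterior (orange) pieces. Filled points passed an adjusted p of 0.05 in limma, open points did not, and the globins lie between 1.67 and 3.08.

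Set against red cell genes in the same library, the globins did not keep a fixed ratio. This comparison was chosen after the data were seen and was not tested. Hbb-y over Slc4a1 was 111 to 216 in mutant libraries and 50.4 to 65.4 in wild-type libraries. Hbb-y over Gata1 was 735 to 1380 in mutant and 322 to 423 in wild-type libraries, with no overlap. Over Klf1 its median was 572 in mutant and 192 in wild-type libraries, again with all mutant libraries above. Hbb-bh1, Hba-x and Hbb-bs over Slc4a1, Gata1 and Klf1 were likewise higher in all mutant libraries. Hbb-bh1 over Slc4a1, for example, was 135 to 184 in mutant and 86.4 to 103 in wild-type libraries. Slc4a1, Gata1 and Klf1 had smaller differences between genotypes than the globins (1.44, 1.32 and 0.98 in the anterior piece), so these higher ratios largely restate differences already given. How many other pairs of genes separate the genotypes in this way was not counted, and globin RNA per red cell was not measured. Against Alas2 the picture differed: Hbb-y over Alas2 was 86.8 to 155 in mutant and 86.9 to 104 in wild-type libraries, with overlap. Hbb-bs over Alas2 overlapped too, at 1.02 to 1.2 in mutant and 0.589 to 1.3 in wild-type libraries. Hbb-bh1 over Alas2 was 115 to 124 in mutant libraries, below its 156 to 176 in wild-type libraries, and Hba-x over Alas2 was 58.4 to 84.9 in the mutant, below 102 to 107 in the wild type.

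Of 11 genes known to act in the switch between embryonic and adult globins, 4 rose and 1 fell in the anterior piece, and 2 rose and 1 fell in the posterior piece. Among all genes 13.3% rose and 10.2% fell in the anterior piece, and 8.56% rose and 2.93% fell in the posterior piece. Bcl11a, a repressor of Hbb-y and Hbb-bh1 in definitive red cells of the mouse, stood at 13.0 and 14.1 TPM in mutant anterior libraries and 0.0971 and 0.135 TPM in wild-type anterior libraries (3.71 ± 0.15, adjusted p = 1e-05). It stood at 10.8 and 10.1 TPM in mutant posterior libraries and 0.0408 and 0.124 TPM in wild-type posterior libraries (3.40 ± 0.15, adjusted p = 1.7e-05). Bcl11a is also made in the nervous system, and the cells that held it cannot be told from these libraries. Its levels in mutant libraries 159 and 163 were alike, unlike those of the globins. Mbd2, a reader of methylated DNA, rose by 0.53 and 0.55, and Lin28b, which favours fetal globin in human cells, fell by 0.68 and 0.53 in the anterior and posterior pieces. Zbtb7a, a repressor of fetal globin in human cells, rose by 0.46 in the anterior piece (adjusted p = 0.035). Sox6, a repressor of Hbb-y in the mouse, differed by 0.08 ± 0.16 and -0.18 ± 0.16.

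Markers of some other cell types differed between genotypes, and their part in the globin differences was not tested. Summed over 10 megakaryocyte and platelet markers, mutant libraries had 6.98 to 33.6 TPM and wild-type libraries 2.49 to 5.002 TPM. Of 6 tested, 1 rose in the anterior and 5 in the posterior piece, beside 13.3% and 8.56% of all genes. Pf4, a marker of that lineage, was at 2.79 and 11.0 TPM in mutant anterior libraries and 0.296 and 0 TPM in wild-type anterior libraries. In posterior pieces it was at 16.1 and 18.6 TPM in the mutant and at 0.559 and 0.395 TPM in the wild type. For Pf4, library 163 was the higher mutant library in both pieces, the reverse of the globins. Summed over 11 endothelial markers, mutant posterior libraries had 686 and 763 TPM and wild-type posterior libraries 516 and 516 TPM, without overlap and with a median difference of 0.50. Anterior sums overlapped, at 393 and 535 TPM in the mutant and 454 and 390 TPM in the wild type, with a median of -0.04. Of the 11, Cldn5 and Pecam1 rose in each piece, beside 13.3% (anterior) and 8.56% (posterior) of all genes. An unadjusted p under 0.05 in limma was reached by 4 anterior and 6 posterior. Among all 16699 genes, 6228 anterior and 4652 posterior reached it, so the anterior count is near that of all genes. For macrophages the sums were 3.04 to 10.0 TPM in mutant and 4.39 to 9.52 TPM in wild-type libraries, with C1qb at 0 in all 8 and Csf1r under 1 TPM in all 8. Of 3 macrophage markers tested 0 passed in either piece, beside 23.6% (anterior) and 11.5% (posterior) of all genes. An unadjusted p under 0.05 was reached by 0 and 1 of them.

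Markers of visceral endoderm and of heart varied between libraries too. Summed over 11 markers of visceral endoderm, which lines the yolk sac where primitive red cells form, mutant posterior libraries had 262 and 1317 TPM and wild-type posterior libraries 2840 and 2357 TPM. In anterior pieces the sums were 19.1 and 28.9 TPM in the mutant and 171 and 26.7 TPM in the wild type. In the posterior pieces 3 of the 11 were lower in the mutant, beside 2.93% of all genes. The differences there ran from -3.37 to -1.41, with a median of -2.14. An unadjusted p under 0.05 in limma was reached by 7 of the 11, beside 4652 of all 16699 genes. In the anterior pieces 0 passed in limma, beside 23.6% of all genes, with 1 of the 11 at an unadjusted p under 0.05. Over 10 heart muscle markers, mutant anterior libraries had 459 and 149 TPM and wild-type anterior libraries 178 and 45.7 TPM. Posterior sums were 3676 and 486 TPM in the mutant and 537 and 1627 TPM in the wild type. Of 9 tested, 0 passed in either piece, beside 23.6% (anterior) and 11.5% (posterior) of all genes, and 0 had an unadjusted p under 0.05. The library with the higher heart sum was also the one with more globin in 3 of the 4 groups, all but wild-type anterior. Each group gives a single pair of libraries, and a link between the heart sums and the globins was not tested.

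Across the 8 libraries the members followed one another closely. As a description of these libraries, which fall into genotype groups, Pearson's r with Hbb-y on the log2(TPM + 1) scale was 0.96 for Hbb-bt, 0.973 for Hbb-bh1, 0.974 for Hbb-bs, 0.989 for Hba-x, 0.997 for Hba-a1 and 0.998 for Hba-a2. Outside the members and predicted genes, the 5 genes most like Hbb-y were Nudt4 (0.992), Blvrb (0.992), Aldh5a1 (0.99), Ppp1r15a (0.989) and Rhd (0.987). Their ranges of level differed: Nudt4 was at 220 to 231 TPM in mutant and 156 to 187 TPM in wild-type libraries, whereas Rhd was at 5.82 to 11.1 TPM in the mutant and 1.40 to 2.62 TPM in the wild type. Those most like the sum of Hbb-bs and Hbb-bt were Pdia2 (0.994), Rhd (0.985), Alas2 (0.985), Blvrb (0.982) and Hbq1b (0.98).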

How the data were processed

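The authors deposited 1 table of TPM for 55421 gene identifiers in 8 libraries, per the file headers. Per the labels' protocols, poly-A RNA from pieces kept in RNAlater for about 10 days went into non-stranded TruSeq libraries, so antisense reads cannot be told apart. The submitters' processing notes name CASAVA 1.8.2, STAR and mm10, with no annotation, counter or treatment of reads that match several genes stated.

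Multiplied by the joined exon length of GENCODE M21, 98.8 to 98.89% of a library's values above 0 came out as whole reads (within 0.01 read). Read numbers and their counting intervals (Clopper-Pearson) come from this. Names and lengths were found for 55240 identifiers. No gene count test was run, since TPM are not counts.

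Differences are of log2(TPM + 1), for genes at 1 TPM or more in at least 2 libraries, fitted with limma 3.58.1 (R 4.3.3), with trend, as 4 group means over all 8 libraries, on 4 residual degrees of freedom. The fit was tested on simulated data. Members are the 7 named globin genes. The rule for named genes took every member, the other genes of the globin clusters, up to 3 genes with the smallest p for each other list and contrast, and the 5 genes most correlated with Hbb-y and with Hbb-bs plus Hbb-bt. Gata1, Tal1, Slc4a1, Hemgn, Zbtb7a, Csf1r and C1qb fall outside it and were chosen after their values were seen. Members and lists were chosen with earlier results of these data known. Of 56 red cell genes, 55 are in the table. Ahsp was not matched, and 1 gene counted in the membrane list is not reported here by name. Promoter boxes were searched with Python 3.11.15. Alternatives covered the pseudocount, the filter, scaling, weighting, the trend, the libraries fitted, the replicate block and leaving out libraries.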

Additional observations from a re-analysis of the deposited data

How the results depend on the processing

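Each of the 7 globin differences between genotypes stayed positive in both pieces under all 22 alternatives. Of the 7 anterior globin calls, 3 were left with no filter and without both libraries 153. Of the 7 posterior calls, 0 were left with no filter, 4 with median-of-ratios scaling, 3 with quantile scaling, 3 without both 159, 1 without both 153, 3 without both 156, 2 with library weights and 4 with no trend. The 15 anterior red cell calls became 7 with no filter, 35 without both 163, 0 without both 153, 3 without both 156 and 9 with no trend. The 6 posterior ones became 1 with no filter, 10 at 5 TPM, 30 without both 163, 0 without both 153 or both 156, 13 with only the compared groups and 2 with library weights. Mutant region calls (9) became 3 without both 163 and 5 without both 153, both 156 or with only the compared groups. Wild-type region calls (5) became 3 at 5 TPM, 10 without both 159, both 163 or with only the compared groups, and 1 without both 153 or both 156. Leaving out 1 library gave 3 to 7 anterior and 0 to 7 posterior globin calls, 5 to 22 anterior and 0 to 15 posterior red cell calls, and 5 to 9 mutant and 4 to 5 wild-type region calls. It gave a globin share of 2.586 to 4.426% in mutant anterior, 2.249 to 4.45% in mutant posterior, 0.4258 to 1.001% in wild-type anterior and 0.6382 to 0.7683% in wild-type posterior pieces. Where a group was left with 1 library, it was assumed to vary like the others. The cause of these changes was not tested.

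Signs changed only among differences that passed in no setting. For the difference of genotype effects, without both 163 the values were -0.05 (Hbb-y, Hba-a1) and -0.11 (Hba-x, Hba-a2). Without both 153 they were -0.39 (Hbb-y), -0.16 (Hbb-bh1), -0.34 (Hba-x), -0.28 (Hba-a1), -0.23 (Hba-a2) and -0.12 (Hbb-bt), and Hbb-bt was at -0.27 without both 159 and 0 with quantile scaling. Leaving out 1 library gave -0.61 to 0.83 (Hbb-y), -0.22 to 0.91 (Hbb-bh1), -0.51 to 0.71 (Hba-x), -0.61 to 0.79 (Hba-a1), -0.44 to 0.8 (Hba-a2), -0.57 to 0.66 (Hbb-bt) and -0.23 to 1.29 (Hbb-bs). For the mutant region effect, Hbb-y was at 0 with quantile scaling and -0.14 without both 159, where Hba-a2 was at -0.26 and Hbb-bt at 0.17. Hba-x was at 0.01 with median-of-ratios scaling and 0.19 without both 163, where Hba-a1 was at 0.09. Leaving out 1 library gave -0.38 to 0.41 (Hbb-y), -0.81 to 0.32 (Hbb-bh1), -0.58 to 0.53 (Hba-x), -0.42 to 0.3 (Hba-a1), -0.37 to 0.42 (Hba-a2), -0.76 to 0.47 (Hbb-bt) and -0.99 to 0.47 (Hbb-bs). For the wild-type region effect, without both 153 the values were -0.38 (Hbb-y), -0.4 (Hbb-bh1), -0.37 (Hba-x), -0.34 (Hba-a1) and -0.2 (Hba-a2), and Hbb-bt was at 0.06 without both 156. Leaving out 1 library gave -0.6 to 0.84 (Hbb-y), -0.45 to 0.66 (Hbb-bh1), -0.54 to 0.68 (Hba-x), -0.67 to 0.74 (Hba-a1), -0.41 to 0.83 (Hba-a2), -0.61 to 0.41 (Hbb-bt) and -0.49 to 1.03 (Hbb-bs).

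Anterior and posterior libraries share numbers. Over all 16699 genes, the deviations of these pairs from the group means correlated at 0.136 for mutant and 0.022 for wild-type pairs. These values do not describe the globins. For each globin gene, the library with the higher level carried the same number in both pieces, within each genotype. The genotype tests treated all libraries as independent, so for the globins their p-values may be too small. With the number as a replicate block, 0 globin genes passed for the difference of effects or for either region effect, and 0, 9 and 7 red cell genes passed for the difference, the mutant and the wild-type region effect. No paired analysis was possible because the genotypes share no number, for the genotype effects. Depth limited Hbb-bt and the pseudogenes, and 2 libraries a group limited every comparison.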
